A study of Mus musculus with 4 samples.

Results

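The genes described here encode the enzymes and regulators of antioxidant and glutathione defence: peroxiredoxins, glutathione peroxidases, the thioredoxin system, superoxide dismutases and catalase, haem oxygenases and NQO1, the enzymes that make and recycle glutathione, glutathione transferases, and the regulators NRF2 and KEAP1. They were taken by name from the deposited expression tables, and all 37 names were found once each among 55401 gene models. GENCODE annotates 37 of the 37 as protein coding. The study stimulated group 2 innate lymphoid cells (ILC2s) purified from lungs of C57BL/6 mice with the alarmin IL-33, alone or with added angiotensin II (Ang II), the peptide hormone that raises blood pressure. Both groups were harvested after 6 h, both received IL-33, and each sample held 500 cells. There were 4 libraries, 2 per group, and no label says that they are from different mice or cultures. P-values here therefore reflect only how far these samples scatter, and that scatter may be technical. Expression is given in FPKM (sequenced fragments divided by transcript length and by the size of the library), which can be compared between genes because they are per length. Each set of 4 values below gives IL-33 replicates 1 and 2 first and then Ang II replicates 1 and 2.

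Cells dispose of hydrogen peroxide by parallel routes. Peroxiredoxins take electrons from thioredoxin, glutathione peroxidases take them from glutathione, and catalase needs no electron donor. Superoxide dismutases produce the peroxide from superoxide, and NADPH finally pays for the thioredoxin and glutathione routes through their reductases. The transcription factor NRF2 (Nfe2l2) drives many of these genes through the antioxidant response element and is held down by KEAP1, which marks it for degradation. Angiotensin II is known in vascular cells for activating NADPH oxidases, which make superoxide.

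Facts of the libraries bear on every value below. The IL-33 libraries differed by 1.08 times the counting noise expected at their estimated depth (genes between 1 and 32 in FPKM times kilobases of exon), and the Ang II libraries by 12.7 times that noise. The IL-33 pair was therefore averaged and counted as 1 sample, so that the test set 1 IL-33 sample against 2 Ang II samples. Across 9215 genes, log2(FPKM + 1) correlated at Pearson r = 0.994 within the IL-33 pair and at r = 0.568 within the Ang II pair, genes not being independent replicates. Without counts in the files, the depth of a single value is unknown, and a listed 0 need not mean that a transcript was absent. Of 12 ILC2 markers, 10 or 11 stood at 1 FPKM or more in each library, and Il5 was listed at 0 in all 4.

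Because several of these genes are textbook NRF2 targets, the promoter windows (250 bases before to 50 after each start site, RefSeq, GRCm38.p6) were searched on both strands for the core of the antioxidant response element, TGACNNNGC. Windows were found for 31 of the 37 genes. The other 6 (Gclc, Gsr, Gsta4, Hmox1, Prdx6 and Sod3) had no window and were not searched. The core lay in the window of 7 of these 31 (22.6%), and in 14.0% of all 27025 genes with a window. A match of letters is a description and not evidence of a bound site. The 6 stretches that lie before the start site are printed 5′ to 3′ on the strand of the gene with up to 20 flanking bases, the core or its reverse complement in capitals, so that they can be set beside the values of the same genes. Their first capital lies 240 bases before the start site in Nfe2l2, 134 in Gclm, 133 in Prdx1, 92 in Txnrd1, 56 in Mgst1 and 56 in Sod1.
Nfe2l2 (chr2:75704875-75704913, minus strand): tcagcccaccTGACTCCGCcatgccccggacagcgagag
Gclm (chr3:122245403-122245451, plus strand): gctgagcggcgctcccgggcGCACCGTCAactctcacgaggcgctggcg
Prdx1 (chr4:116685446-116685494, plus strand): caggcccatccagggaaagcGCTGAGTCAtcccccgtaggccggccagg
Txnrd1 (chr10:82859094-82859142, plus strand): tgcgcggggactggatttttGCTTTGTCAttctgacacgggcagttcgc
Mgst1 (chr6:138140451-138140499, plus strand): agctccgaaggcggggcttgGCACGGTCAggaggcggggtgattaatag
Sod1 (chr16:90220686-90220734, plus strand): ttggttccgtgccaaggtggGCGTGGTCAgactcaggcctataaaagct
In Srxn1 the core lay after the start site. For Txnrd1 and Mgst1 it lay in 1 of several windows (3 and 2).

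The antioxidant genes ranged from abundant to listed at 0, 26 of the 37 averaging 20 FPKM or more with IL-33, and with Ang II they stood on both sides of their IL-33 levels. Prdx1, Txn1, Gpx4 and Prdx5 alone gave 54.8 to 59.2% of the summed FPKM of the 37 genes in each library. The clearest differences lay in single genes: Hmox1 stood higher in both Ang II libraries, while Txnip, Gsta4 and Mgst3 stood under 1 FPKM there and Cat and Gstm1 under 5 FPKM. Of the 37 genes, 33 had a mean of at least 1 FPKM and were tested. None passed an adjusted p of 0.05 (limma on log2(FPKM + 1), two-sided, Benjamini-Hochberg over all genes tested), and neither did any of the 9215 genes (0% in either direction, smallest adjusted p = 0.174). At an unadjusted p under 0.05, 0 of the 33 stood higher and 3 lower with Ang II (Txnip, Gsta4 and Mgst3), against 2.79% and 10.8% of all genes tested. In simulated data with the spread of the Ang II pair this test recovered 0 of 200 genes given a 16-fold difference, so a count of 0 says little about whether a gene differed.

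By position, 6 of the 33 had both Ang II values above both IL-33 values, where 24.4% of all genes tested did, and 16 had both below, where 33.5% did. As shares of the 33 these are 18.2% and 48.5%. Among genes averaging 20 FPKM or more, a setting chosen after the data had been seen, the counts were 6 above and 10 below of 23 (26.1% and 43.5%), against 33.9% and 31.1% of all 2622 genes at that level. At a distance of at least 2-fold, 1 lay above and 7 below (3.03% and 21.2%), against 12.8% and 18.2% of all genes tested. The median log2 difference of the 33 genes was -0.40, with -0.17 in Ang II replicate 1 and -0.44 in replicate 2, and that of all genes tested was 0.00. Mgst3, listed at 0 in both Ang II libraries, lies far below this median, so no fold is needed for it to fix the median. Without Ang II replicate 2 the count above was 13 in place of 6, but 1 Ang II value lies outside the IL-33 pair more easily than 2 do. No share of all genes is given for that setting. The median was then -0.17, and that of all 8172 genes tested in that setting was -0.15. In 21 of the 33 genes (63.6%) the gap between the 2 Ang II libraries was larger than the difference between groups, as in 59.8% of all genes tested.

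**Figure D1:**
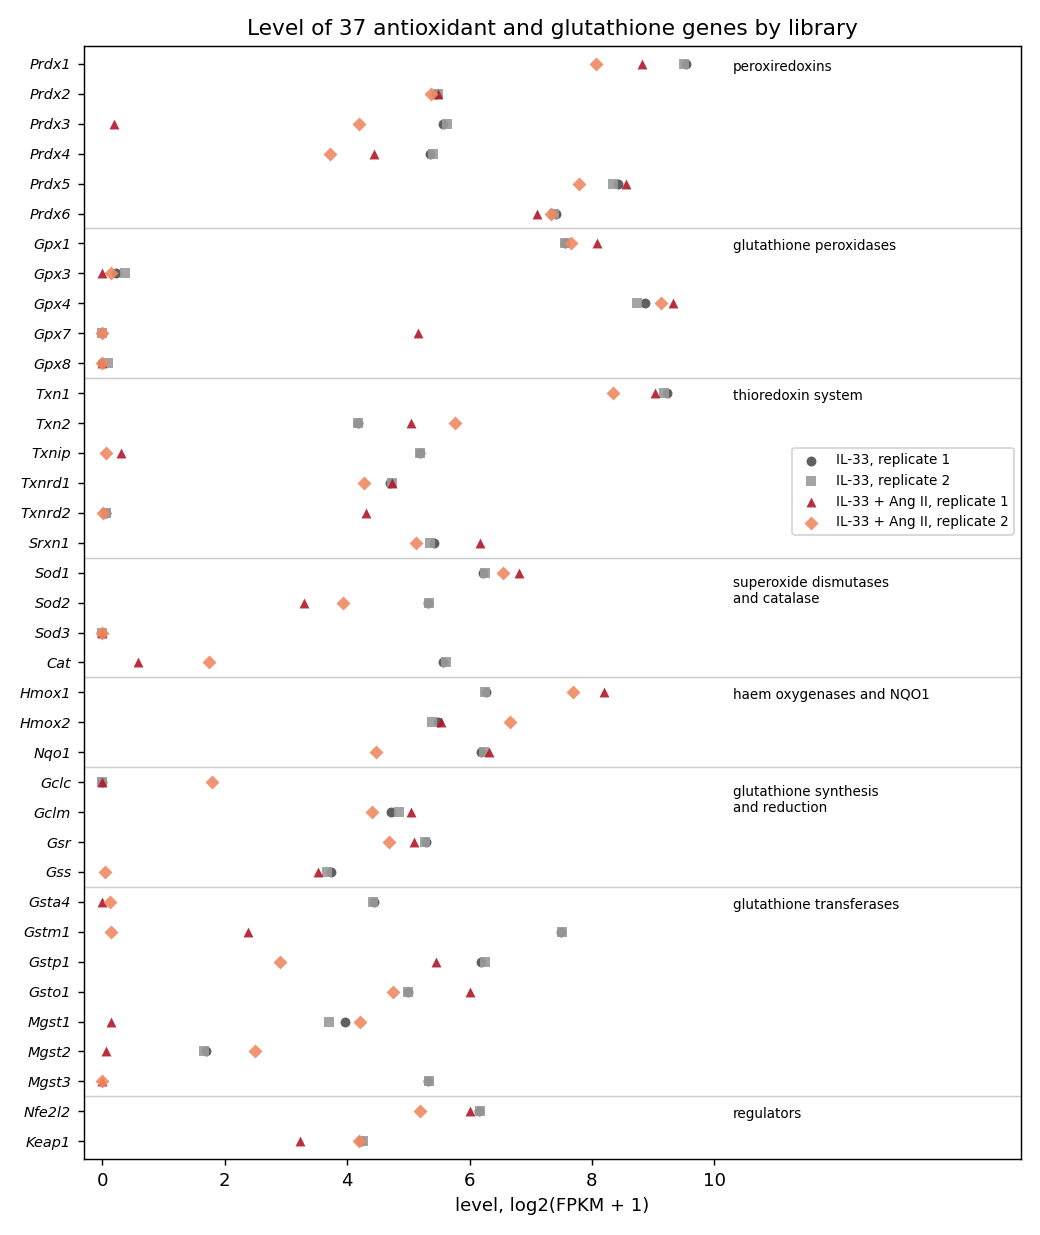
Level of each of the 37 genes in the 4 libraries on a log2(FPKM + 1) axis, grouped by class, with circles and squares for the IL-33 libraries and triangles and diamonds for the Ang II libraries. The IL-33 symbols lie within 0.27 of each other in the 30 genes averaging 5 FPKM or more with IL-33, while the Ang II symbols lie apart by a median of 0.76 in the 33 genes tested.

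Peroxiredoxins reduce peroxides with a reactive cysteine. Prdx1, the abundant cytosolic member (chromosome 4, 116685544 to 116700822, plus strand), stood at 745 and 726 FPKM under IL-33 alone, against 451 and 266 FPKM with Ang II added. Both Ang II libraries were below both IL-33 libraries, by a log2 difference of -1.08 (SE 0.51, adjusted p = 0.712 by limma), and the Ang II libraries differed from each other by 1.69-fold. Prdx4, the member of the endoplasmic reticulum, gave 39.9, 41.5, 20.7 and 12.2 FPKM, again with both Ang II values below both IL-33 values. Prdx3, the mitochondrial member, gave 46.5, 48.6, 0.14 and 17.4 FPKM. It was lower in both Ang II libraries, but the gap between those libraries (4.01 on the log2 scale) was larger than the difference between groups (-3.41, SE 2.63).

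The other peroxiredoxins differed little. Prdx5, found in mitochondria, peroxisomes and cytosol, gave 342, 325, 377 and 220 FPKM, so that the Ang II libraries lay on both sides of the IL-33 pair. Prdx6, which reduces phospholipid hydroperoxides and relies on glutathione, gave 170, 165, 136 and 160 FPKM; both Ang II values were lower here, but they overlapped the IL-33 values under 2 of the 3 other scalings (to the same sum, and without haemoglobin genes). Prdx2, the second cytosolic member and the main one of red blood cells, gave 42.9, 44.0, 43.9 and 40.3 FPKM, the narrowest range of the class, and its groups stood apart only after scaling, above under 1 scaling and below under 2. Red blood cell markers moved far more over the same libraries: the 9 of them summed to 25150 and 24948 FPKM with IL-33 and to 3837 and 1596 FPKM with Ang II. Exons of Prdx2 share 173 bases with Junb on the opposite strand and those of Prdx5 share 409 with Trmt112, and whether counting used strand is not given in the sources used here.

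The thioredoxin system feeds these enzymes. Txn1, cytosolic thioredoxin, stood at 597 and 575 FPKM under IL-33 alone, against 521 and 326 FPKM with Ang II added, lower in both (log2 difference -0.51, SE 0.46, adjusted p = 0.775 by limma). Txn2, its mitochondrial counterpart, went the other way, at 17.1 and 17.1 FPKM under IL-33 alone, against 31.8 and 53.1 FPKM with Ang II added. Both Ang II values of Txn2 were above both IL-33 values (log2 difference 1.22, SE 0.57, adjusted p = 0.711 by limma). Thioredoxin reductase 1 (Txnrd1), the selenoprotein that recharges Txn1, gave 24.9, 25.8, 25.5 and 18.4 FPKM, and Ang II replicate 1 lay within the IL-33 range, or below it under 2 of 3 other scalings. Sulfiredoxin (Srxn1), which repairs overoxidised peroxiredoxins, gave 42.1, 40.0, 71.1 and 33.8 FPKM, with the Ang II libraries on either side of the IL-33 pair. The mitochondrial reductase Txnrd2 was at 0.04 FPKM in both IL-33 libraries, 18.7 FPKM in Ang II replicate 1 and 0.01 FPKM in replicate 2.

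Txnip was under 1 FPKM in both Ang II libraries. It encodes thioredoxin-interacting protein, which binds and inhibits thioredoxin and limits glucose uptake, and lies on chromosome 3 (96557957 to 96561883, plus strand). It stood at 35.5 and 35.4 FPKM under IL-33 alone, against 0.24 and 0.05 FPKM with Ang II added. The log2 difference was -5.00 (SE 0.60, unadjusted p = 0.0184, adjusted p = 0.190 by limma), below in both Ang II libraries. Of the 37 genes, 26 had an IL-33 mean of at least 20 FPKM, and 3 of these (11.5%) were under 1 FPKM in both Ang II libraries: Txnip, Gsta4 and Mgst3. Of all 2758 genes tested at that IL-33 level, 6.74% were.

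Glutathione peroxidases were the class in which the abundant members stood higher with Ang II, by small amounts. Gpx4, the selenoenzyme that reduces lipid hydroperoxides in membranes and guards against ferroptosis (chromosome 10, 80047166 to 80056439, plus strand), stood at 466 and 425 FPKM under IL-33 alone, against 641 and 555 FPKM with Ang II added. Both Ang II values were above both IL-33 values, with a log2 difference of 0.42 (SE 0.19, adjusted p = 0.707 by limma). Gpx1, the general cytosolic and mitochondrial selenoenzyme, gave 189, 188, 270 and 201 FPKM, also above in both (log2 difference 0.30, SE 0.33). The direction of both was kept under each of 3 other scalings of the libraries. Gpx7, an enzyme of the endoplasmic reticulum, stood at 34.5 FPKM in Ang II replicate 1 and was listed at 0 in the other 3 libraries. Gpx3, the secreted plasma enzyme, and Gpx8, also of the endoplasmic reticulum, were under 1 FPKM throughout (at most 0.29 and 0.07 FPKM).

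Superoxide dismutases and catalase split. Sod1, the cytosolic copper and zinc enzyme, stood at 73.3 and 74.9 FPKM under IL-33 alone, against 111 and 92.4 FPKM with Ang II added, above in both libraries (log2 difference 0.45, SE 0.29, adjusted p = 0.775 by limma). Sod2, the mitochondrial manganese enzyme and an NF-kB target in many cells, stood at 38.8 and 39.6 FPKM under IL-33 alone, against 8.86 and 14.3 FPKM with Ang II added. Both Ang II values of Sod2 were more than 2-fold below both IL-33 values (log2 difference -1.71, SE 0.58, adjusted p = 0.558 by limma). Cat, which encodes peroxisomal catalase (chromosome 2, 103453849 to 103485160, minus strand), stood at 46.3 and 48.0 FPKM under IL-33 alone, against 0.50 and 2.36 FPKM with Ang II added. The log2 difference of Cat was -4.42 (SE 0.99, adjusted p = 0.386 by limma), and both Ang II values were far below both IL-33 values. Catalase is abundant in red blood cells, whose markers also summed to less with Ang II; the part of those cells in the value of Cat was not tested. In bulk RNA, fewer cells of a type and less RNA per cell cannot be told apart. Sod3, the extracellular enzyme, was listed at 0 in all 4 libraries.

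Hmox1 was the only gene of the 37 with both Ang II values at least 2-fold above both IL-33 values. It encodes the inducible haem oxygenase, which degrades haem to biliverdin, iron and carbon monoxide, and lies on chromosome 8 (75093621 to 75100589, plus strand). It stood at 76.5 and 74.9 FPKM under IL-33 alone, against 291 and 205 FPKM with Ang II added, which are 3.85 and 2.70 times the IL-33 mean. The log2 difference was 1.68 (SE 0.38, adjusted p = 0.389 by limma), and the gap between the Ang II libraries was 0.51. Macrophages also express Hmox1 strongly, and the 10 macrophage markers summed to 2364 and 2329 FPKM with IL-33 and to 2166 and 1027 FPKM with Ang II. Within that list Lyz2 (1700, 1668, 1016 and 683 FPKM) was lower in both Ang II libraries. Chil3 gave 212, 210, 696 and 158 FPKM, and Marco, singled out after its values were seen, gave 0, 0, 191 and 23.2 FPKM, while Mrc1 and Siglecf were under 0.5 FPKM in all 4. The part of macrophage RNA in the value of Hmox1 was not tested.

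Other stress-linked genes of this class did not share the pattern of Hmox1. Hmox2, the constitutive haem oxygenase, gave 43.6, 40.9, 45.4 and 99.8 FPKM, with only Ang II replicate 2 well above the others, and its 2 groups overlapped after scaling by the median ratio. Nqo1, the quinone reductase often read as a marker of NRF2 activity, gave 72.3, 74.1, 78.6 and 21.2 FPKM. The Ang II libraries of Nqo1 thus lay on both sides of the IL-33 pair and differed from each other by 3.72-fold, except that both lay below after scaling by the median ratio.

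Among the genes that make and recycle glutathione, Gsr and Gss lay below in both Ang II libraries and none lay above in both. Gclm, the modifier subunit of glutamate-cysteine ligase, gave 25.3, 27.8, 32.2 and 20.1 FPKM, with the Ang II libraries on both sides. Its catalytic partner Gclc was listed at 0 in 3 libraries and stood at 2.48 FPKM in Ang II replicate 2. Gsr, which encodes glutathione reductase, gave 38.3, 37.6, 33.1 and 24.6 FPKM, lower in both Ang II libraries by a log2 difference of -0.40 (SE 0.43). Gss, which encodes glutathione synthetase, gave 12.3, 11.7, 10.6 and 0.03 FPKM, and Ang II replicate 2 alone was near 0. For Gclm, exons share 296 bases with the opposite-strand transcript Gm17494, which stood at 38.9 to 43.2 FPKM.

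Glutathione transferases couple glutathione to electrophiles, and 3 of them, Gstm1, Mgst3 and Gsta4, were more than 2-fold below both IL-33 values in both Ang II libraries. Gstm1, a mu-class cytosolic transferase (chromosome 3, 108012255 to 108017973, minus strand), stood at 179 and 180 FPKM under IL-33 alone, against 4.19 and 0.11 FPKM with Ang II added. Its log2 difference was -6.24 (SE 1.53, adjusted p = 0.419 by limma), and both Ang II libraries were low, although they differed from each other by 2.23 on that scale. Mgst3, a microsomal transferase of the eicosanoid family, stood at 39.2 and 39.7 FPKM under IL-33 alone, against a listed 0 in either Ang II library, so no fold is given. Its unadjusted p of 0.0143 (adjusted p = 0.174 by limma) rests on the spread of other genes, because its own Ang II values do not differ. Gsta4, the transferase that clears 4-hydroxynonenal, stood at 20.7 and 20.5 FPKM under IL-33 alone, against 0 and 0.09 FPKM with Ang II added.

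Gstp1, the pi-class enzyme, gave 72.0, 75.7, 42.9 and 6.52 FPKM, below in both Ang II libraries as deposited and under the 3 other scalings. It is near-identical to Gstp2, which gave 18.9, 19.2, 11.03 and 1.95 FPKM, so how their shared reads were divided is uncertain. Gsto1, the omega-class enzyme, gave 31.0, 30.8, 63.4 and 25.8 FPKM, on both sides of the IL-33 pair. The microsomal genes Mgst1 (14.7, 12.1, 0.10 and 17.5 FPKM) and Mgst2 (2.25, 2.15, 0.05 and 4.64 FPKM) were near 0 in Ang II replicate 1 and above the IL-33 values in replicate 2. Airway epithelium is rich in several transferases, and the 10 epithelial markers summed to 405 and 395 FPKM with IL-33 and to 88.9 and 201 FPKM with Ang II. In that list Scgb1a1 gave 256, 244, 76.9 and 133 FPKM, Sftpc gave 80.5, 81.5, 3.17 and 43.2 FPKM, and Scgb3a1, Sftpb, Krt8 and Krt18 were under 0.5 FPKM in all 4. The part of epithelial RNA in these values was not tested.

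**Figure D2:**
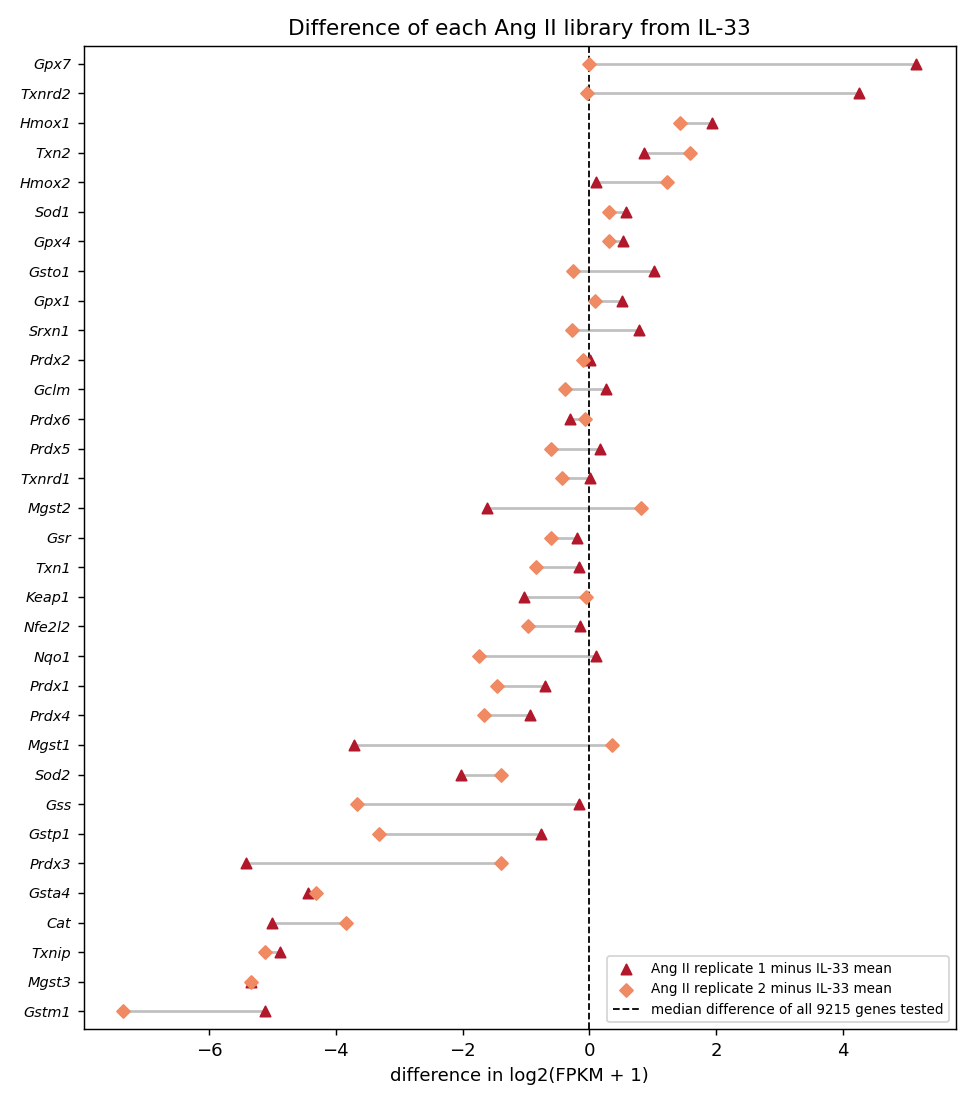
Difference in log2(FPKM + 1) between each Ang II library and the IL-33 mean for the 33 genes tested, ordered by the mean difference, with a grey line joining the libraries and a dashed line at the median of all 9215 genes tested. Txnip, Gsta4, Mgst3, Cat and Gstm1 lie below -3.8 in both libraries, and 10 genes have differences of opposite sign in the 2 libraries. The share of all genes tested with opposite signs is not given, so this count cannot be read as particular to these genes.

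The regulators themselves stood somewhat lower. Nfe2l2, which encodes NRF2, gave 70.2, 70.7, 63.3 and 35.4 FPKM, with both Ang II values below (log2 difference -0.56, SE 0.59, adjusted p = 0.775 by limma). Keap1, its inhibitor, gave 17.8, 18.2, 8.34 and 17.3 FPKM, below in both Ang II libraries but overlapping under the same 2 scalings as Prdx6. NRF2 is governed mainly through protein stability, which these data do not measure. Of the 6 genes whose promoter stretch is printed above, Sod1 stood above in both Ang II libraries and Prdx1 and Nfe2l2 below in both. The Ang II values of Gclm, Txnrd1 and Mgst1 overlapped or straddled the IL-33 pair as deposited. These 6 genes did not share a direction.

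**Figure D3:**
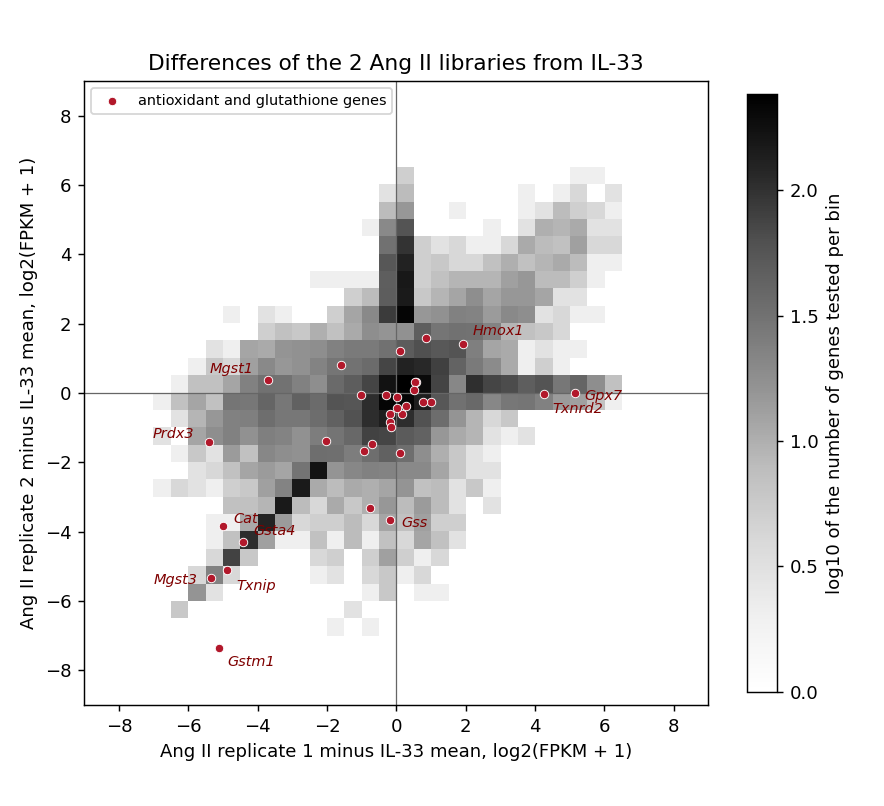
Difference from the IL-33 mean in Ang II replicate 1 (x axis) and replicate 2 (y axis), both in log2(FPKM + 1), as grey bins shaded by the log10 number of genes tested and red points for the 33 genes. Hmox1 lies in the upper right, and Gstm1, Mgst3, Txnip, Gsta4 and Cat in the lower left. Gpx7 and Txnrd2 lie to the right (5.15 and 4.25 on the x axis) and near 0 on the y axis, being high in replicate 1 only.

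Sums over each class set the routes of peroxide removal side by side. Peroxiredoxins summed to 1386 and 1350 FPKM with IL-33 and to 1028 and 716 FPKM with Ang II, and without Prdx1, left out after its values were seen, to 641, 625, 578 and 450 FPKM. Glutathione peroxidases summed to 655 and 614 FPKM with IL-33 and to 945 and 756 FPKM with Ang II. The peroxiredoxin sum was thus below in both Ang II libraries (0.752 and 0.524 times the IL-33 mean) and the glutathione peroxidase sum above in both (1.49 and 1.19 times). Glutathione transferases went furthest, from 359 and 361 FPKM to 111 and 54.6 FPKM, of which Gstm1 alone made up 179 and 180 FPKM with IL-33. Haem oxygenases and NQO1 summed to 192 and 190 FPKM against 415 and 326 FPKM. Of these sums Hmox1 alone made up 76.5 and 74.9 FPKM with IL-33 and 291 and 205 FPKM with Ang II. The thioredoxin system gave 717, 693, 668 and 431 FPKM, and the regulators 88.1, 88.9, 71.6 and 52.7 FPKM. Superoxide dismutases and catalase gave 158, 162, 120 and 109 FPKM. Cat alone made up 46.3, 48.0, 0.50 and 2.36 FPKM of that class, while Sod1 stood above and Sod2 below in both Ang II libraries. These class sums kept their side of the IL-33 mean under the 3 other scalings. The sum for glutathione synthesis and reduction (75.9, 77.1, 75.9 and 47.2 FPKM) did not, since the ratio of Ang II replicate 1 to IL-33 was 0.992 as deposited and 1.003 with libraries scaled to the same sum. All 37 genes together took 0.843, 0.821, 0.806 and 0.631% of the FPKM sum of each library. No test was made on these sums.

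**Figure D4:**
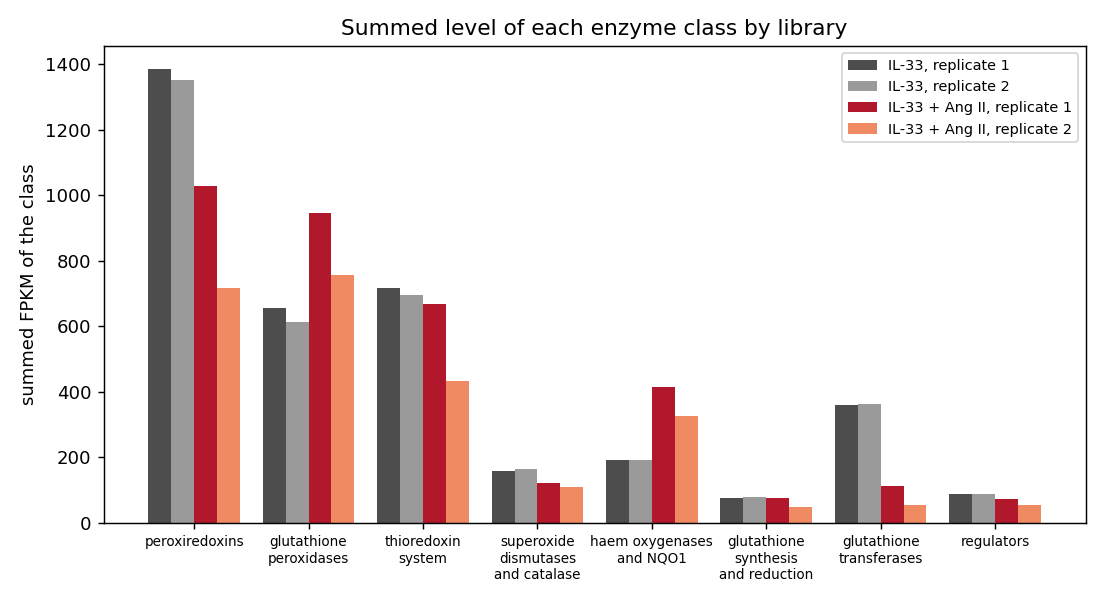
Summed FPKM of each of the 8 classes (bars from 0) in the 4 libraries, grey for IL-33 and red or orange for Ang II. The grey bars are nearly equal within each class, the glutathione peroxidase and haem oxygenase bars are higher in both Ang II libraries, and the peroxiredoxin and glutathione transferase bars are lower in both.

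Further genes of the pathway were counted in 6 lists, 112 gene models in all, of which 75 were tested. None passed the adjusted threshold (limma). At an unadjusted p under 0.05, 2 stood higher and 3 lower, against 2.79% and 10.8% of all genes tested. By position 13 lay above and 25 below in both Ang II libraries (24.4% and 33.5% of all genes tested). The count above and below was 3 and 2 of 9 for NRF2 regulation, 1 and 6 of 14 for NADPH supply, and 0 and 4 of 9 for cystine and glutathione handling. It was 2 and 5 of 16 for selenoprotein synthesis and other selenoproteins, 2 and 4 of 12 for iron and haem handling, and 5 and 4 of 15 for glutaredoxins and other thiol repair.

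Single genes of these lists stood well apart in both Ang II libraries. Ccs, the copper chaperone that loads Sod1, gave 0.10, 0, 32.2 and 29.3 FPKM, and the 2 Ang II values of this gene agreed closely (unadjusted p = 0.0163, adjusted p = 0.176 by limma). Nadk, the kinase that makes NADP from NAD, gave 0.51, 0.65, 55.0 and 22.8 FPKM. On the low side, Sephs2, which makes the selenium donor for all selenoproteins, gave 60.5, 66.6, 1.07 and 4.54 FPKM. The selenoprotein genes went both ways in the same libraries. Gpx4, Gpx1 and Selenok stood above in both. Selenof (59.2, 56.2, 43.5 and 48.9 FPKM) and Selenos (502, 522, 402 and 470 FPKM) stood below in both, and others such as Txnrd1 overlapped. The metallothionein gene Mt1 gave 770, 733, 325 and 221 FPKM, and Sesn1, a stress-induced sestrin, 23.2, 25.5, 0.06 and 1.37 FPKM. Pgd, of the NADPH-yielding pentose phosphate pathway, gave 36.6, 35.6, 16.2 and 6.66 FPKM, and Hagh, of the glyoxalase system, 49.5, 49.9, 0.27 and 14.7 FPKM.

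Sums of the markers of other cells were lower in both Ang II libraries in every list, though single markers within the lists were not all lower. The 6 T cell markers summed to 136 and 141 FPKM with IL-33 and to 36.6 and 6.59 FPKM with Ang II, with Cd3d at 61.3, 65.2, 23.8 and 0 FPKM. The 4 neutrophil markers summed to 208 and 201 FPKM against 61.4 and 38.6 FPKM. There S100a8 gave 163, 157, 34.2 and 18.9 FPKM, while Retnlg differed little (3.02, 3.20, 3.01 and 2.65 FPKM). The 6 markers of stroma and endothelium summed to 32.8 and 31.9 FPKM against 1.74 and 10.4 FPKM. Most of that difference was Cldn5 (29.6, 29.3, 0.05 and 0 FPKM). Pecam1 (1.14, 1.15, 0.11 and 9.08 FPKM) stood higher in Ang II replicate 2, and Col1a1 differed little (1.62, 1.21, 1.26 and 1.23 FPKM). The 3 B cell markers summed to under 3 FPKM in every library. The 12 ILC2 markers summed to 1630 and 1646 FPKM with IL-33 and to 1904 and 1874 FPKM with Ang II, but without Areg (7.38, 7.51, 217 and 344 FPKM) the sums were 1623, 1638, 1687 and 1530 FPKM. Il13, like Areg singled out after its values were seen, gave 70.1, 73.7, 16.3 and 0.53 FPKM. The part of these cells in the differences above was not tested.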

How the data were processed

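Amplified cDNA was sequenced, per the labels' protocols, and the authors deposited one FPKM value per gene and library, with 2 decimals, per the file headers. The submitters' processing notes name mm10, HISAT, StringTie and edgeR; the sources used here do not give their versions or roles. Of 55401 identifiers, 55141 were found in GENCODE M21 (GRCm38, the assembly of mm10), which gave coordinates. FPKM are not counts, so no count model was used. Columns were matched to samples by name.

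The spread within each pair was set against counting noise at a depth solved from how often low genes (0.05 to 0.5 in FPKM times kilobases) were 0 in only 1 library of a pair. The IL-33 pair was then averaged. Genes averaging 1 FPKM or more over these 3 columns were tested on log2(FPKM + 1) with limma 3.58.1 in R 4.3.3 (lmFit and eBayes with a trend, 1 residual degree of freedom), two-sided, with Benjamini-Hochberg adjustment over all 9215 genes. This assumes that IL-33 samples vary as Ang II samples do. The pseudocount understates differences of low genes. The test was checked on simulated data.

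The members and lists were chosen with earlier results of these data known. Values were given for members with at least 20 FPKM in a library, or 5 FPKM and at least 2-fold apart in both Ang II libraries (28 members); the 8 others above 0 were given too, decided after their values were seen. Of the pathway lists, genes with 20 FPKM and 2-fold apart were named, at most 4 a list. Selenok, Selenof, Selenos and Gstp2 were named outside that rule. Of marker lists the most abundant were named, but not for ILC2s, red blood cells or B cells, and further markers were named outside this rule. Alternatives were other pseudocounts (0.1 and 10), filters, scalings, libraries left out, and both IL-33 libraries as replicates.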

Additional observations from a re-analysis of the deposited data

How the results depend on the processing

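When the IL-33 libraries entered as 2 replicates, limma called 457 genes higher and 1090 lower, and of the 33 antioxidant genes 1 higher (Hmox1) and 5 lower (Mgst3, Gsta4, Txnip, Cat and Gstm1); that setting treats a pair that differed by about the counting noise as separate samples. With a replicate block added to that fit, limma called 0 genes higher and 0 lower, and 0 of the antioxidant genes; the labels share only a number between groups, and the deviations of same-numbered libraries correlated at -0.02 across genes. Counts of calls were 0 under both pseudocounts, both filters, the 3 scalings and without either IL-33 library. The differences near 0 turned for Prdx2 (0.025) and Gclm (0.011) with libraries scaled to the same sum. Gclm ranged from -0.38 to 0.27 as each library was left out (0.011 without IL-33 replicate 2). Without Ang II replicate 1 the sign of the difference turned for Mgst1, Gsto1, Srxn1 and Mgst2. Without Ang II replicate 2 it turned for Nqo1, Prdx2, Txnrd1, Prdx5 and Gclm. The cause was not tested. Leaving out each library in turn gave 6 to 13 antioxidant genes above and 16 to 23 below in all remaining Ang II libraries. No shares of all genes are given for these settings, and 1 remaining Ang II value lies outside the IL-33 pair more easily than 2 do. Without Ang II replicate 1, 32 antioxidant genes were kept. The medians ran from -0.52 (without Ang II replicate 1) to -0.17 (without Ang II replicate 2), where those of all genes kept were 0.00 and -0.15. Summed FPKM was 0.695 to 0.959 times IL-33 (0.827 with all libraries). The widest values came from leaving out an Ang II library, which also ends the test for want of residual degrees of freedom. Among genes averaging 20 FPKM or more, a filter chosen after the data had been seen that leaves fewer genes, 10 lay below. That is 43.5% of 23, against 31.1% of all genes at that level. Over the scalings 5 to 7 lay above and 14 to 19 below. Scaling moves all genes together, and the median difference of all genes tested ran from -0.07 to 0.07 over the scalings. No shares of all genes are given for them. The unknown depth limits every low value.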

Other observations

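Ratios between antioxidant genes within a library do not depend on how libraries are scaled, and 5 pairs chosen after their values were seen are given here. The ratio of Prdx1 to Prdx5 was 2.18 and 2.23 with IL-33 and 1.20 and 1.21 with Ang II, although both genes differed 1.69-fold and 1.71-fold between the Ang II libraries. The ratio of Gpx4 to Prdx1 was 0.626 and 0.586 with IL-33 and 1.42 and 2.09 with Ang II, so the more abundant of these 2 transcripts was Prdx1 in the former and Gpx4 in the latter. The ratio of Sod1 to Sod2 was 1.89 in both IL-33 libraries and 12.5 and 6.48 with Ang II. The ratio of Hmox1 to Nqo1, both textbook NRF2 targets, was 1.06 and 1.01 with IL-33 and 3.71 and 9.68 with Ang II. The ratio of Gpx4 to Gpx1 was 2.47 and 2.26 with IL-33 and 2.38 and 2.77 with Ang II, which overlap. These ratios were not tested.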
